A study of Anopheles gambiae with 15 samples.

Results

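A group of 69 probe sets, 0.409% of the 16884 mosquito probe sets tested, gave a higher signal in every section of the larval gut of the malaria mosquito Anopheles gambiae than in whole larvae. Their section levels, put in order, held no step of 2-fold or more. A probe set is a group of short probes on the array whose signals are combined into 1 value. The members were chosen on measured values. The 3 arrays of each group were averaged on the log2 scale, each of the 4 section means had to lie at least 1 log2 unit (2-fold) above the whole-larva mean, and, once the 4 section means were put in order, no gap between neighbours could reach 1 log2 unit. Of the tested probe sets, 78 met the first condition and 9 of those failed the second. The height of the members over whole larvae and the size of the steps between their section levels are therefore properties of the choice and are described below without a test.

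The sections were the gastric caeca, the anterior midgut, the posterior midgut, and the hindgut dissected along with the Malpighian tubules (called hindgut below), and they were set against whole larvae. All came from 4th instar larvae of the G3 strain, reared at 28 °C under 12 h of light a day on yeast and ground fish food, with no genetic change and no treatment. Guts were dissected in ethanol, each section array holds material pooled from 1000 guts, each whole-larva array holds 200 individuals, and each group has 3 arrays that the labels call biological repeats. Whole larvae contain the gut, so each difference sets a section against a mixture that includes it.

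The larval mosquito gut is a tube of functionally distinct stretches. The gastric caeca and the midgut secrete digestive enzymes, take up nutrients and move ions, and the anterior midgut of the larva is known for its strongly alkaline lumen. The Malpighian tubules and the hindgut form the urine and recover ions and water. All of these stretches are lined by epithelia that carry transport proteins, whereas cuticle, fat body, muscle and nervous tissue make up much of the rest of the larva.

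No table used here names the gene behind a probe set ID, and the RefSeq table of assembly idAnoGambNW_F1_1 holds 0 of the IDs. The members therefore appear under their IDs, no function is given to any of them, and the section labels could not be checked against marker genes. In these bulk samples more cells of a type and more RNA per cell cannot be told apart.

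An array of anterior midgut and an array of whole larvae stood apart from their groups over the members. On anterior midgut array 2 the median level of the 69 members was 7.84, against 8.88 and 9.08 on the other anterior midgut arrays. This array was the lowest of its group for 62 of the 69 members (89.9%), against 38.3% of all tested probe sets and 69.8% of the 4183 tested probe sets detected in every group. The spread (SD) of the levels of all tested probe sets was 1.40 on it and 1.59 to 1.85 on the other 14 arrays. On whole-larva array 1 the members' median level was 6.62, against 7.40 and 7.29 on the other arrays of that group, and it was the lowest of its group for 47 members (68.1%), against 31.5% of all tested probe sets and 43.2% of those detected in every group. The rule asks for a low whole-larva mean, so a low value on 1 whole-larva array favours membership. The members' share on whole-larva array 1 is therefore tied to the choice and does not show that the array is unusual. Over all tested probe sets its SD was 1.68, inside the range of the other arrays. Some counts over the members and some differences of single members are also given without anterior midgut array 2 and whole-larva array 1 below. Values include all 15 arrays unless arrays are said to be left out.

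The members were well expressed probe sets in the gut. Their median level was 8.93 in the gastric caeca, 8.43 in the anterior midgut, 8.95 in the posterior midgut and 8.65 in the hindgut, against 7.15 in whole larvae, all in log2 units. Over all tested probe sets the medians were 5.08, 5.15, 5.09 and 5.02 in the same sections, against 5.14 in whole larvae. The median difference of the members from whole larvae was 1.69 (3.24-fold) in the gastric caeca, 1.44 (2.72-fold) in the anterior midgut, 1.61 (3.05-fold) in the posterior midgut and 1.51 (2.86-fold) in the hindgut, and for all tested probe sets it was 0.01, 0.06, 0.04 and -0.05. Without anterior midgut array 2 and whole-larva array 1 the members' medians were 1.53, 1.71, 1.48 and 1.33 in the same order of sections.

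The members did not reach the largest fold differences on the array. Averaged over the 4 sections, a member lay 1.20 to 2.51 log2 units above whole larvae, with a median of 1.61, or 3.06-fold. The lowest section of a member led whole larvae by 1.01 to 1.88 log2 units, with a median of 1.22 (2.32-fold). At least 4-fold differences were seen for 13 members in the gastric caeca, 13 in the anterior midgut, 21 in the posterior midgut and 11 in the hindgut. Without anterior midgut array 2 the anterior midgut count was 25. Without whole-larva array 1 the counts were 9, 6, 13 and 9 in the same order of sections, and without both arrays they were 9, 19, 13 and 9. Other arrays moved them too: the gastric caeca count was 21 without gastric caeca array 1 and 23 without whole-larva array 3, and the hindgut count was 19 without whole-larva array 3. The largest difference of any member was 6.93-fold in the gastric caeca, 6.82-fold in the anterior midgut, 9.10-fold in the posterior midgut and 9.27-fold in the hindgut, whereas single tested probe sets reached 24.9-, 22.8-, 17.9- and 45.9-fold in those sections.

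**Figure D1:**
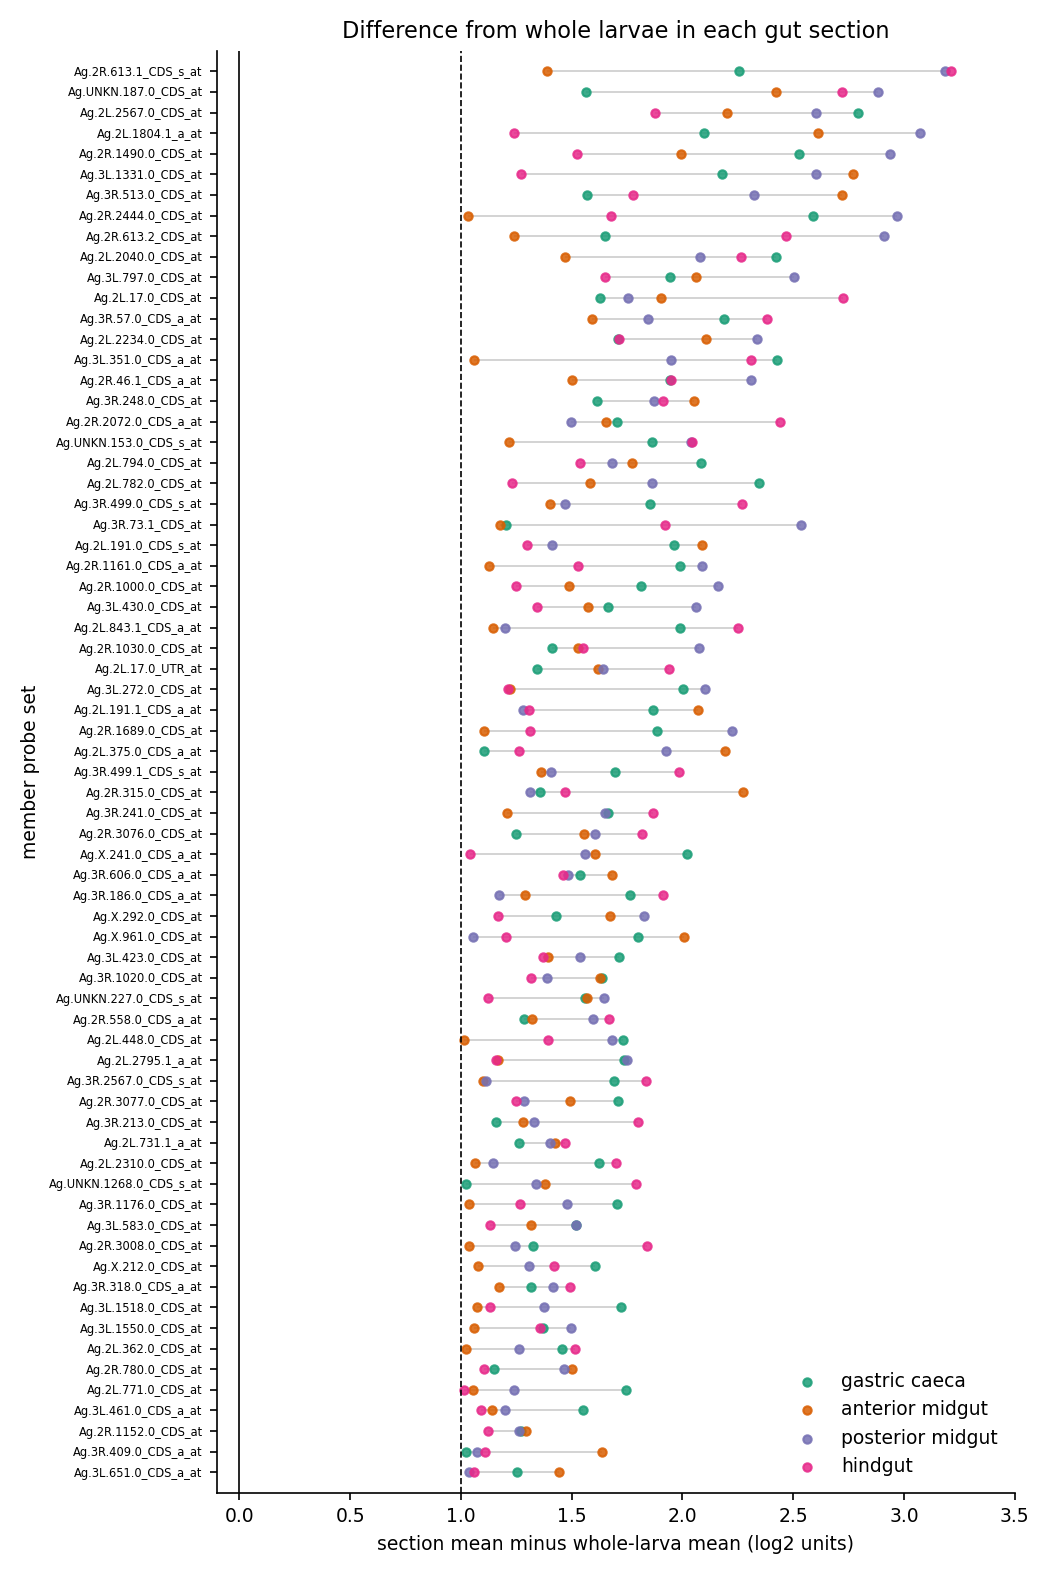
Difference of each section mean from the whole-larva mean, in log2 units (horizontal axis), for the 69 members, 1 row each; colours mark the 4 sections and the dashed line the limit of 1 log2 unit. Most rows hold their 4 points within 1 log2 unit of each other, and the spread between the points is widest in the rows of the members with large differences in 1 or more sections.

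The 15 arrays show the members' levels before any averaging. The lowest array median of the members in any section was 7.84, on anterior midgut array 2, and the other 11 section arrays ran from 8.54 to 9.19, against 6.62, 7.40 and 7.29 on the whole-larva arrays. For 55 of the 69 members, all 12 section arrays lay above all 3 whole-larva arrays, a pattern seen in 1.67% of all tested probe sets (282). Without anterior midgut array 2 this held for 67 members, without whole-larva array 1 for 56 and without both for 68, against 2.88%, 2.96% and 4.49% of all tested probe sets. The median SD of a member over 3 arrays was 0.26 in the gastric caeca, 0.63 in the anterior midgut, 0.31 in the posterior midgut and 0.20 in the hindgut, against 0.42 in whole larvae. For the probe sets detected in every group the same medians were 0.20, 0.53, 0.24 and 0.19 in the sections and 0.33 in whole larvae.

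**Figure D2:**
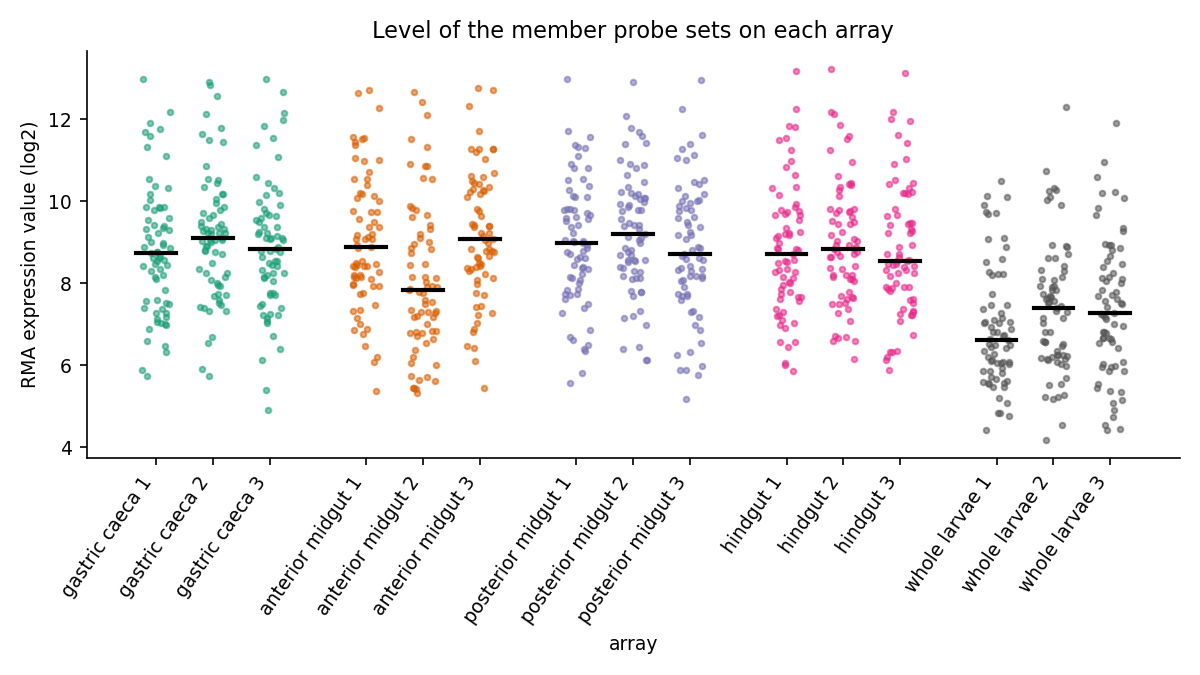
Level of the 69 members (log2 units, vertical axis) on each of the 15 arrays, grouped by section with whole larvae at the right; coloured points are members and black marks are array medians. The medians of the section arrays lie between 7.84 and 9.19 and those of the whole-larva arrays between 6.62 and 7.40.

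The limma fit over all tested probe sets gives the size of these differences relative to the spread between arrays. Calls needed at least a 2-fold difference together with a Benjamini-Hochberg adjusted p under 0.05. Called higher than whole larvae were 65 members in the gastric caeca, where 4.24% of all tested probe sets were called, 59 in the anterior midgut (2.35% of all), 63 in the posterior midgut (3.72% of all) and 63 in the hindgut (7.29% of all). Since the rule used these contrasts, nothing is read from the members' shares. Called in all 4 sections were 51 members, or 73.9% of the 69, and 0.326% (55) of all tested probe sets, of which 92.7% were members. Without whole-larva array 1, 27 members were called in all 4 sections (0.195% of all tested), without anterior midgut array 2, 63 (0.569%), and without both, 47 (0.444%). Another 13 members were called in 3 sections, 3 in 2 sections, 1 in 1 section and 1 in none. The anterior midgut count rested on the spread shared over all groups: fitted on the 6 arrays of those groups alone, 20 members were called. The methods' t-test, at an unadjusted p under 0.05 and at least 2-fold, called 64 members in the gastric caeca (4.51% of all tested), 43 in the anterior midgut (1.81%), 67 in the posterior midgut (3.83%) and 63 in the hindgut (7.41%). The median standard error of a member's difference was 0.33 log2 units. This error is the same for all 4 sections of a member, since the fit shares 1 spread over all groups. The members' median SD itself was 0.20 in the hindgut and 0.63 in the anterior midgut.

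The largest difference in the gastric caeca belonged to Ag.2L.2567.0_CDS_at. Its level was 9.86, 9.67 and 9.21 in the gastric caeca, 9.58, 8.14 and 9.24 in the anterior midgut, 9.67, 9.78 and 8.70 in the posterior midgut and 8.50, 8.94 and 8.54 in the hindgut, against 6.09, 7.02 and 7.24 in whole larvae. Every section array lay above every whole-larva array, and the mean differences were 2.79, 2.20, 2.60 and 1.88 log2 units, or 6.93-, 4.602-, 6.07- and 3.67-fold. Its lead of 1.88 for the lowest section was the largest among the 69 members.

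The second largest difference in the gastric caeca, and the widest range between sections of all members, belonged to Ag.2R.2444.0_CDS_at. It had 9.78, 9.36 and 8.90 in the gastric caeca, 8.43, 6.53 and 8.41 in the anterior midgut, 10.09, 9.91 and 9.18 in the posterior midgut and 8.01, 9.04 and 8.26 in the hindgut, against 6.02, 6.57 and 7.68 in whole larvae. Anterior midgut array 2, at 6.53, lay inside the whole-larva range, so the groups overlapped there. The mean differences were 2.59, 1.03, 2.97 and 1.68 log2 units. The anterior midgut difference was 1.66 when array 2 of that section was left out, and 0.66 when whole-larva array 1 was.

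In anterior midgut the 2 largest differences were those of Ag.3L.1331.0_CDS_at and Ag.3R.513.0_CDS_at. The first had 9.41, 9.95 and 9.50 in the gastric caeca, 10.39, 9.82 and 10.43 in the anterior midgut, 9.79, 10.35 and 10.004 in the posterior midgut and 8.84, 8.83 and 8.48 in the hindgut, against 6.62, 7.62 and 8.10 in whole larvae. Its hindgut arrays were below all arrays of the other sections and still above all whole-larva arrays. Its differences were 2.18, 2.77, 2.60 and 1.27 log2 units, and without whole-larva array 1 the hindgut difference was 0.86. Ag.3R.513.0_CDS_at had 7.18, 7.41 and 7.26 in the gastric caeca, 9.50, 7.0 and 8.80 in the anterior midgut, 8.21, 8.30 and 7.59 in the posterior midgut and 6.97, 7.68 and 7.81 in the hindgut, against 5.47, 5.69 and 5.97 in whole larvae. Its 3 anterior midgut arrays spanned more than the other sections did, with array 2 as the low one, and no section array reached down to the whole-larva arrays. Its anterior midgut difference was 2.72 log2 units, and 3.44 without array 2.

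Posterior midgut and hindgut were led by the same member, Ag.2R.613.1_CDS_s_at, whose differences of 3.19 (9.10-fold) and 3.21 (9.27-fold) were the largest of any member in any section. Its level was 7.60, 7.71 and 7.71 in the gastric caeca, 7.35, 5.61 and 7.45 in the anterior midgut, 9.06, 8.68 and 8.05 in the posterior midgut and 8.54, 8.93 and 8.41 in the hindgut, against 5.59, 5.28 and 5.37 in whole larvae. Its whole-larva mean was 5.41, and the 95th percentile of the 290 probe sets with number IDs was 5.29 in whole larvae. Whole-larva array 2, at 5.28, lay below that percentile, so the folds of this member are set against a level near background. Anterior midgut array 2, at 5.61, sat just above the highest whole-larva array, and all other section arrays lay well clear of whole larvae. The differences of gastric caeca and anterior midgut were 2.26 and 1.39 log2 units, and the second was 1.98 without anterior midgut array 2.

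The second largest difference in the posterior midgut was that of Ag.2L.1804.1_a_at. It had 9.58, 9.85 and 9.66 in the gastric caeca, 10.54, 9.61 and 10.49 in the anterior midgut, 10.55, 11.01 and 10.47 in the posterior midgut and 8.57, 9.07 and 8.89 in the hindgut, against 6.75, 7.92 and 8.14 in whole larvae. Hindgut was the lowest section here, and its 3 arrays lay above the 3 whole-larva arrays. The differences were 2.10, 2.61, 3.07 and 1.24 log2 units, and the hindgut difference was 0.81 without whole-larva array 1.

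The second largest difference in the hindgut was that of Ag.2L.17.0_CDS_at. It had 7.13, 7.73 and 7.45 in the gastric caeca, 8.10, 7.26 and 7.76 in the anterior midgut, 7.73, 7.78 and 7.17 in the posterior midgut and 8.51, 8.65 and 8.44 in the hindgut, against 6.10, 6.17 and 5.16 in whole larvae. The 3 hindgut arrays were above those of the other sections, and no section array overlapped whole larvae. The differences were 1.63, 1.90, 1.75 and 2.73 log2 units.

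At the other end, 2 members were nearly level along the gut. Ag.2R.1152.0_CDS_at had 9.55, 9.79 and 9.91 in the gastric caeca, 9.73, 8.97 and 10.61 in the anterior midgut, 9.56, 9.76 and 9.89 in the posterior midgut and 9.75, 9.62 and 9.42 in the hindgut, against 8.23, 8.33 and 8.86 in whole larvae. Its 4 section means lay within 0.17 log2 units, the narrowest range of the 69, and its anterior midgut difference was 1.29 with array 2 and 1.69 without it. Ag.2L.731.1_a_at had 11.32, 11.46 and 11.08 in the gastric caeca, 11.54, 11.52 and 11.28 in the anterior midgut, 11.57, 11.43 and 11.27 in the posterior midgut and 11.54, 11.52 and 11.42 in the hindgut, against 9.68, 10.31 and 10.07 in whole larvae. Its section means spanned 0.21 log2 units, and its section arrays all lay above its whole-larva arrays.

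The whole-larva level of the members ran from 4.38 to 11.30. The highest belonged to Ag.3R.241.0_CDS_at, with 12.99, 12.92 and 12.99 in the gastric caeca, 12.72, 12.10 and 12.72 in the anterior midgut, 12.99, 12.91 and 12.97 in the posterior midgut and 13.16, 13.22 and 13.13 in the hindgut, against 9.71, 12.29 and 11.91 in whole larvae. Whole-larva array 1 was more than 2 log2 units below the other arrays of its group, the widest spread of any member in whole larvae, and anterior midgut array 2, at 12.10, overlapped whole-larva array 2. The mean of the 4 differences was 1.60 with all arrays and 0.80 without whole-larva array 1. The next highest, Ag.2L.191.0_CDS_s_at, had 12.19, 12.83 and 12.67 in the gastric caeca, 12.65, 12.65 and 12.77 in the anterior midgut, 11.71, 12.08 and 12.25 in the posterior midgut and 11.84, 11.86 and 11.99 in the hindgut, against 10.12, 10.74 and 10.95 in whole larvae. Its section arrays all lay above its whole-larva arrays, while the sections overlapped each other.

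**Figure D3:**
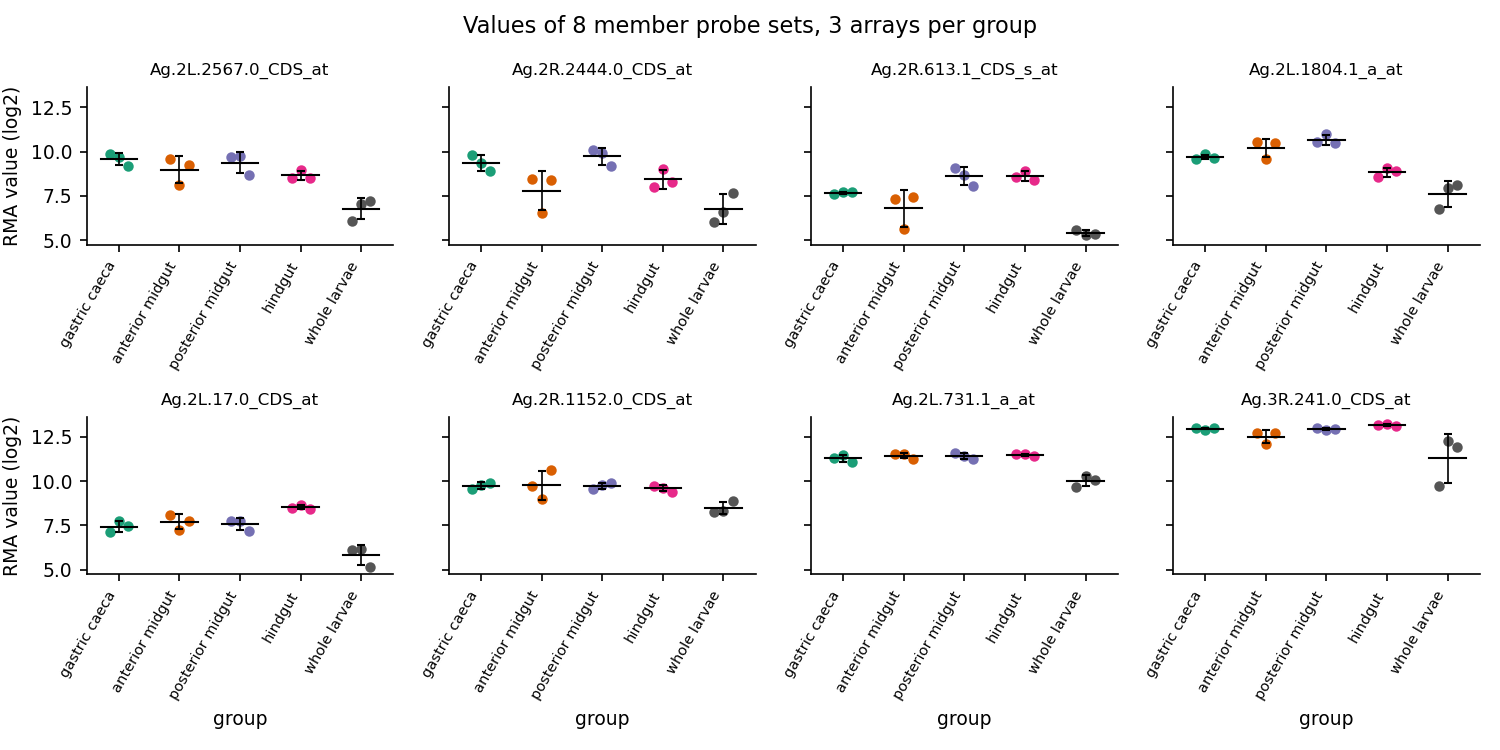
Level on each array (log2 units, vertical axis) of 8 members, 1 panel each, with the 4 sections at the left and whole larvae at the right; points are single arrays, horizontal bars means and whiskers SDs of 3 arrays. The panels hold the members with the largest differences, the narrowest section ranges and the highest whole-larva level, among them Ag.2R.2444.0_CDS_at with an anterior midgut array at 6.53 and Ag.3R.241.0_CDS_at with a whole-larva array at 9.71.

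The members with the lowest whole-larva levels lay below one background level of the array in whole larvae. The 95th percentile of the 290 probe sets whose IDs start with a number was 5.29 in whole larvae and 5.31 to 5.83 in the sections. Ag.2R.3008.0_CDS_at had 6.32, 5.90 and 4.91 in the gastric caeca, 5.38, 5.42 and 5.46 in the anterior midgut, 5.57, 6.14 and 5.18 in the posterior midgut and 6.06, 6.72 and 5.88 in the hindgut, against 4.43, 4.19 and 4.53 in whole larvae, with its whole-larva arrays below all its section arrays. Ag.UNKN.1268.0_CDS_s_at had 5.74, 5.74 and 5.40 in the gastric caeca, 6.21, 5.32 and 6.41 in the anterior midgut, 5.80, 6.13 and 5.90 in the posterior midgut and 6.46, 6.60 and 6.12 in the hindgut, against 4.84, 4.54 and 4.43 in whole larvae. The whole-larva means of 4.38 and 4.60 are not above that background, so no fold is given for these members. Above that level lay 69 members in the gastric caeca, posterior midgut and hindgut, 68 in the anterior midgut and 63 in whole larvae. The member not above it in the anterior midgut was Ag.2R.3008.0_CDS_at, with a mean of 5.42 against 5.83. The differences of the 6 members below it in whole larvae are set against a level not above this background. Above the same percentile of the 4506 probe sets whose IDs start with Pf, 3.96 to 4.10, lay all 69 members in every group.

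The smallest spread in whole larvae was that of Ag.UNKN.227.0_CDS_s_at, at 6.13, 6.20 and 6.08 (SD 0.06), and its anterior midgut arrays read 8.41, 6.21 and 8.50. Array 2 of anterior midgut thus sat at the whole-larva level for this member while the other anterior midgut arrays did not. Ag.3R.186.0_CDS_a_at had 10.11, 10.24 and 10.23 in whole larvae (SD 0.07), with differences of 1.76, 1.29, 1.17 and 1.91 log2 units. After Ag.3R.241.0_CDS_at, the largest whole-larva spread was that of Ag.3L.797.0_CDS_at, at 6.19, 7.56 and 7.83 (SD 0.88), with differences of 1.94, 2.06, 2.50 and 1.65 log2 units.

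Among themselves, the members differed in how even they were along the gut. The range of the 4 section means was 0.17 to 1.94 log2 units with a median of 0.73 (1.66-fold), and 15 members spanned more than 1 log2 unit. The widest gap between neighbouring means had a median of 0.44. Hindgut was the highest section for 21 members, posterior midgut for 20, gastric caeca for 15 and anterior midgut for 13. Anterior midgut was the lowest section for 25 members, hindgut for 24, gastric caeca for 14 and posterior midgut for 6. These orders moved with anterior midgut array 2. Without it, anterior midgut was the highest section for 24 members, hindgut for 18, posterior midgut for 16 and gastric caeca for 11, and anterior midgut was the lowest for 11.

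In the contrasts between sections, 12 members (17.4%) were called in at least 1 pair of sections and 57 in none, where 18.5% of all tested probe sets were called in at least 1 pair. Leaving out anterior midgut array 2 gave 15 members called in at least 1 pair (16.3% of all tested). Leaving out whole-larva array 1 gave 11 (18.9%), and leaving out both gave 15 (16.8%). The rule limited these gaps, so the counts are a description. Called in either direction were 1 member between gastric caeca and anterior midgut (4.63% of all tested), 2 between gastric caeca and posterior midgut (2.45%), 3 between gastric caeca and hindgut (8.48%), 3 between anterior and posterior midgut (3.23%), 6 between anterior midgut and hindgut (15.1%) and 4 between posterior midgut and hindgut (9.99%). Single arrays moved these small counts. Between gastric caeca and anterior midgut the count was 10 without anterior midgut array 3, 3 without anterior midgut array 2 and 0 without gastric caeca array 1 or 3. Between anterior and posterior midgut it was 9 without anterior midgut array 3 and 1 without posterior midgut array 2. Between gastric caeca and hindgut it was 0 without gastric caeca array 1 or hindgut array 1, and 1 without gastric caeca array 3 or hindgut array 2 or 3. Between gastric caeca and posterior midgut it was 1 in 11 of the 15 omissions. Of the members called between anterior midgut and hindgut, 2 were higher in the anterior midgut and 4 in the hindgut. Of those called between posterior midgut and hindgut, 3 were higher in the posterior midgut and 1 in the hindgut.

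Just inside the lead limit were Ag.2L.771.0_CDS_at and Ag.2L.448.0_CDS_at, whose lowest section lay 1.01 log2 units above whole larvae. Just outside were Ag.3L.384.0_CDS_a_at at 0.997 and Ag.2R.597.0_CDS_at at 0.99. Just inside the gap limit were Ag.2R.613.1_CDS_s_at at 0.93 and Ag.2R.2444.0_CDS_at at 0.91. The nearest outside it, with no probe set between, were Ag.X.23.0_CDS_at, with a gap of 1.16 below its hindgut, and Ag.2R.44.0_CDS_at, with a gap of 1.20 below its anterior midgut.

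Membership depended on single arrays. Applying the rule with 1 array left out gave 49 to 101 probe sets, and 29 of the 69 members stayed under each of the 15 omissions. Without whole-larva array 1 there were 58, of which 49 were among the 69, and all 20 members lost there fell below the lead limit. Without anterior midgut array 2 there were 92, of which 66 were among the 69. Without anterior midgut array 3 there were 49, of which 47 were among the 69. Without whole-larva array 2 there were 101, of which 64 were among the 69. With anterior midgut array 2 and whole-larva array 1 both left out, 82 probe sets met the rule, 51 of them among the 69.

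The same rule was then applied to 2 arrays of each group, and the probe sets it chose were read on the array that had not been used. Chosen without the arrays numbered 1, 44 probe sets met the rule, and 28 of them (63.6%) were at least 2-fold higher in all 4 sections on the arrays numbered 1, against 1.23% of all tested probe sets. Without the arrays numbered 3, 68 were chosen and 23 (33.8%) were at least 2-fold higher in all 4 sections there, against 0.527% of all tested. Without the arrays numbered 2, 101 were chosen and 14 (13.9%) reached 2-fold in all 4 sections, against 0.249% of all tested. On the held-out arrays, the 4 sections lay above whole larvae by any amount for 44 of 44, 64 of 68 and 59 of 101 chosen probe sets, for arrays 1, 3 and 2 in that order, against 20.1%, 21.6% and 18.2% of all tested. Only 4183 of the 16884 tested probe sets were detected in every group. The shares among the detected ones were not computed, so the shares of all tested include many dim probe sets.

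The low count on the arrays numbered 2 came with anterior midgut array 2. On those arrays, 83 of the 101 chosen probe sets were at least 2-fold higher in the gastric caeca (5.80% of all tested). In the posterior midgut 81 were (5.48%), in the hindgut 74 (7.69%), but in the anterior midgut 15 (7.97%). In all 3 sections other than anterior midgut together, 62 of the 101 reached 2-fold. The same count was 29 of 44 on the arrays numbered 1 and 26 of 68 on those numbered 3. The share of all tested probe sets was not computed for these counts, so nothing is read from them. The medians of the held-out differences there were 1.47 in the gastric caeca, 0.13 in the anterior midgut, 1.56 in the posterior midgut and 1.30 in the hindgut. In each round the 4 sections share 1 whole-larva array, so that array's level enters all 4 differences at once.

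**Figure D4:**
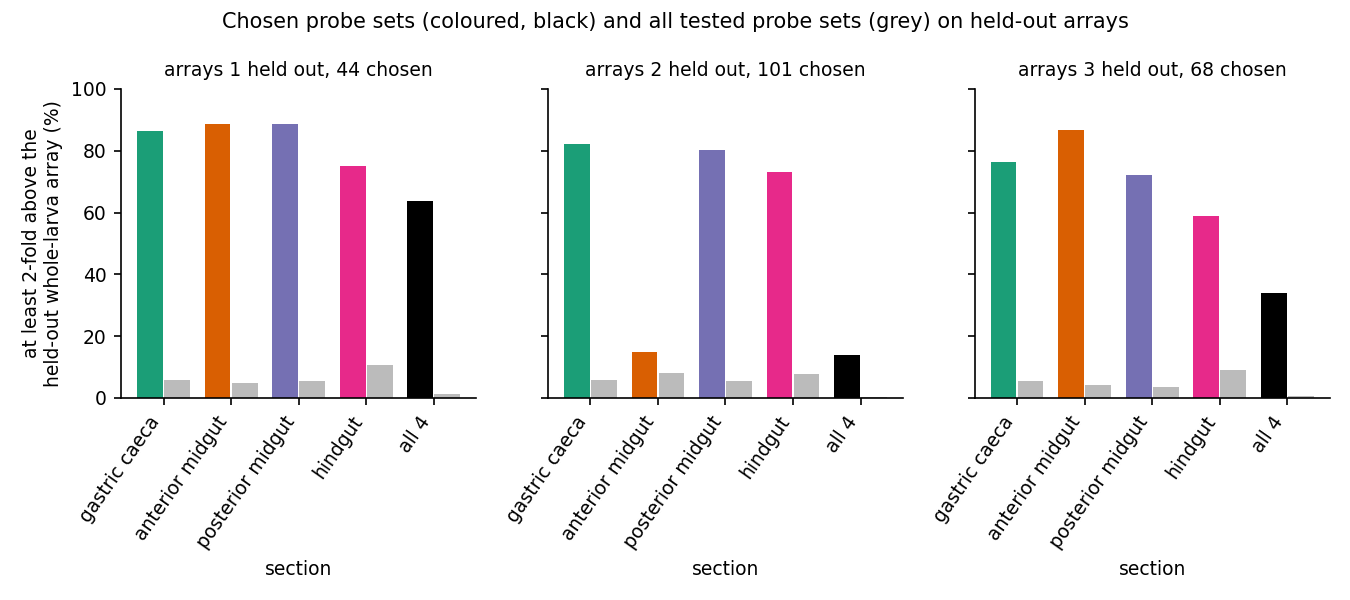
Share of probe sets (%, vertical axis) at least 2-fold above the held-out whole-larva array, per section and in all 4 sections, for the 3 rounds that each hold out the arrays of 1 number; coloured and black bars are the probe sets chosen on the other arrays and grey bars all tested probe sets. In all 4 sections the chosen probe sets reach 63.6%, 13.9% and 33.8% in the rounds that hold out arrays 1, 2 and 3, and the low bar for the anterior midgut on arrays 2 stands for 15 of 101.

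Some tested probe sets share an ID number with a member without being members. The rule was applied to them too and they failed it, so their values are no independent reading of the members. Whether probe sets with a shared ID number read the same gene is not stated in the sources used here. The 69 members carry 65 ID numbers, and 81 tested probe sets carry those numbers. Of the 65 ID numbers, 11 had more than 1 tested probe set. These IDs were singled out after their values were seen. Of these, 4 ID numbers held 2 members each, 2 of them with non-member probe sets besides, and over the 15 arrays the levels of the pair had Pearson correlations of 0.913 (Ag.2L.17.0_CDS_at and its UTR counterpart), 0.989 (Ag.2L.191.0_CDS_s_at and Ag.2L.191.1_CDS_a_at), 0.953 (Ag.2R.613.1_CDS_s_at and Ag.2R.613.2_CDS_at) and 0.969 (the pair numbered Ag.3R.499). The arrays of a pair are shared, so these correlations describe the pairs and carry no test.

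The other 12 probe sets, under 9 of the 11 ID numbers, were not members, so that each of them missed a limit of the rule, and none met the limit of 2-fold in all 4 sections. Called higher than whole larvae by limma were 6 of the 12 in the gastric caeca (4.24% of all tested), 4 in the anterior midgut (2.35%), 8 in the posterior midgut (3.72%) and 2 in the hindgut (7.29%). None was called lower in any section, and 3 were called in no section. Their median differences were 1.16 in the gastric caeca, 0.86 in the anterior midgut, 1.74 in the posterior midgut and 0.30 in the hindgut. Without anterior midgut array 2, 8 were called in the anterior midgut. For 7 of the 12, hindgut was the lowest section, and 9 were called in at least 1 pair of sections, against 18.5% of all tested probe sets.

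The members' own probe sets under those 9 ID numbers lay between 1.24 and 3.21 log2 units above whole larvae in the hindgut, where their counterparts lay between -0.33 and 3.32. Ag.2L.1804.2_a_at was 2.63 (SE 0.33, limma adjusted p = 0.00016) above whole larvae in the gastric caeca and 1.82 (SE 0.33, adjusted p = 0.0022) in the posterior midgut, with differences of -0.25 in the anterior midgut and -0.33 in the hindgut that were not called. Its member counterpart, Ag.2L.1804.1_a_at, had 2.61 and 1.24 in those last sections. Ag.3R.73.0_CDS_a_at was 3.19 above whole larvae in the anterior midgut (SE 0.60, adjusted p = 0.0028) and 2.84 in the posterior midgut (SE 0.60, adjusted p = 0.0063), with 1.90 in the gastric caeca (adjusted p = 0.061) and 0.53 in the hindgut (adjusted p = 0.59), neither of them called.

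Under the ID number of the member with the largest differences, Ag.2R.613.0_CDS_s_at was 3.32 above whole larvae in the hindgut (SE 0.32, limma adjusted p = 1.1e-05), 2.41 in the posterior midgut (adjusted p = 0.00021) and 1.11 in the gastric caeca (adjusted p = 0.041). Its anterior midgut difference was 0.88 (adjusted p = 0.066). Ag.2R.613.0_UTR_s_at was 2.64 above whole larvae in the hindgut (adjusted p = 7.7e-05) and 2.08 in the posterior midgut (adjusted p = 0.00072). Its differences of 0.49 in the gastric caeca (adjusted p = 0.47) and 0.59 in the anterior midgut (adjusted p = 0.2) were not called. All 4 tested probe sets of this number were thus highest in the hindgut or posterior midgut, and these non-members were not 2-fold higher in every section. Ag.2L.843.2_CDS_s_at, a counterpart of the member Ag.2L.843.1_CDS_a_at, was called in no section, with differences of 0.18 in the gastric caeca, -0.67 in the anterior midgut, -0.65 in the posterior midgut and 0.20 in the hindgut.

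A closer match, the same ID up to its CDS or UTR field, held for 2 of the 12. Ag.3R.213.0_UTR_s_at, the counterpart of the member Ag.3R.213.0_CDS_at, was called higher in the anterior midgut (1.34, SE 0.25, limma adjusted p = 0.0026) and posterior midgut (1.27, SE 0.25, adjusted p = 0.0039), and its differences in the gastric caeca (0.58, adjusted p = 0.19) and hindgut (0.32, adjusted p = 0.42) were not called. Without whole-larva array 1 it was not called in the posterior midgut, and the mean of its 4 differences was 0.54, against 0.87 with that array. Ag.3R.318.0_UTR_a_at, the counterpart of Ag.3R.318.0_CDS_a_at, was called in none, with differences of 0.82, 0.39, 0.996 and 0.54.

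**Figure D5:**
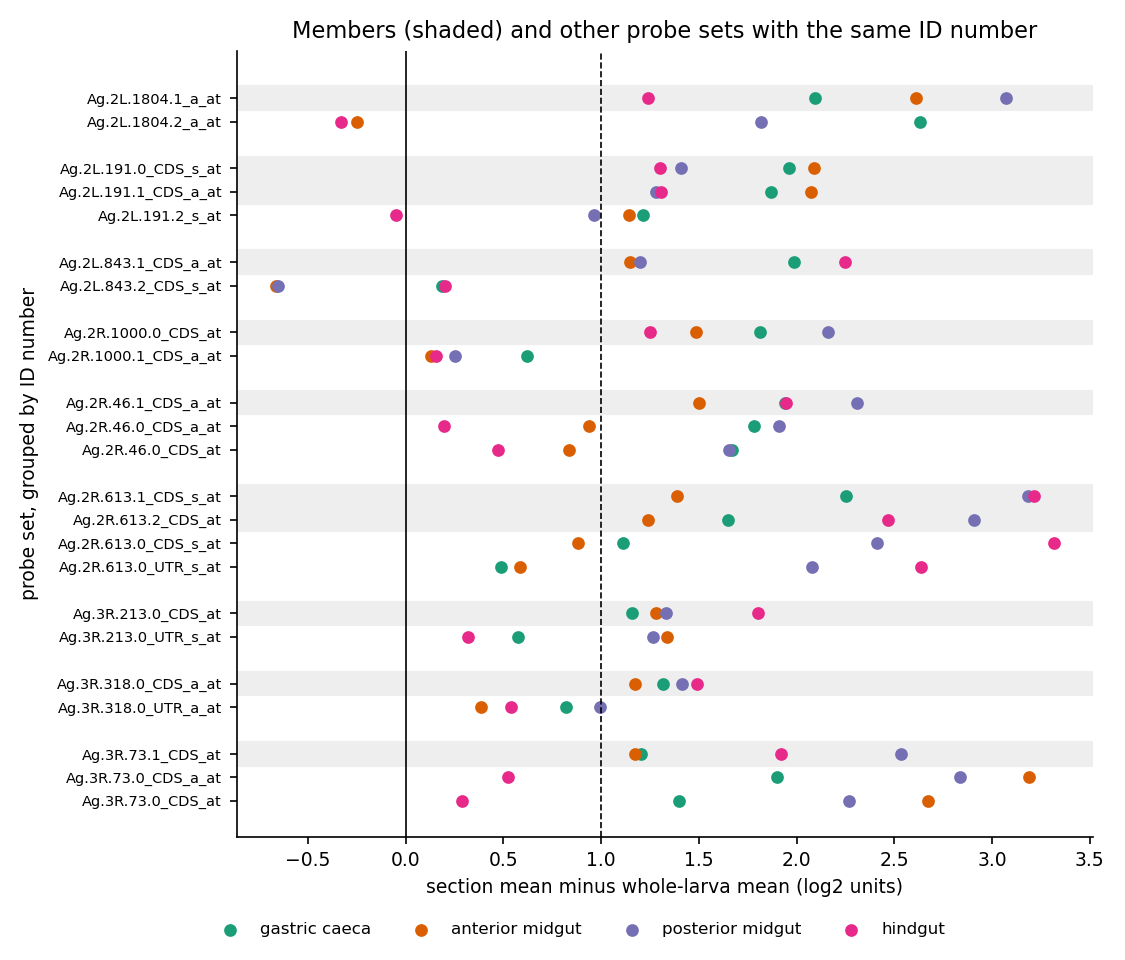
Difference of each section mean from the whole-larva mean (log2 units, horizontal axis) for members (shaded rows) and for the 12 other tested probe sets with the same ID numbers (unshaded rows); colours mark the 4 sections and the dashed line is 1 log2 unit. The unshaded rows lie between -0.67 and 3.32, and the 2 of them with hindgut beyond the dashed line both carry the number Ag.2R.613.

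By the letters of their IDs, which the sources used here do not define, 65 members (94.2%) carry CDS, 1 (1.45%) carries UTR and 3 (4.35%) carry neither, against 83.3%, 4.68% and 12.0% of the tested probe sets. Suffixes of the a type were found in 19 members (27.5%, against 19.7% of the tested), s in 8 (11.6%, against 8.14%) and x in 0, and 42 (60.9%, against 72.1%) had neither letter. The second field of the ID, which reads like a chromosome arm, was 2L for 18 members (26.1%, against 20.3%), 2R for 17 (24.6%, against 26.3%), 3R for 15 (21.7%, against 18.8%), 3L for 11 (15.9%, against 14.8%), X for 4 (5.80%, against 8.31%) and UNKN for 4 (5.80%, against 11.5%). The members were thus spread over every value of that field.

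As a check on RNA integrity, the 3′ control level was set against the 5′ level, where a larger 3′ excess means less of the 5′ end. The hindgut had the smallest mean 3′ excess of the 5 groups. The level of the 3′ control probe sets minus that of the 5′ ones was 0.83 ± 0.21 in the gastric caeca, 0.90 ± 0.19 in the anterior midgut, 0.96 ± 0.26 in the posterior midgut and 0.08 ± 0.26 in the hindgut, against 0.93 ± 0.15 in whole larvae (log2 units, SD, n = 3 arrays each). Two-sided exact permutation tests against whole larvae gave p = 0.5, 0.7, 0.8 and 0.1 in that order, and 0.1 is the smallest p that 3 arrays against 3 can give. The part of this measure in the hindgut differences of the members was not tested.

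Outside the tested probe sets, none of the 4506 Pf probe sets, the 290 number IDs, the 144 control IDs and the 937 accession IDs met the rule.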

How the data were processed

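Each array has 1 deposited log2 value per probe set, made by the authors with RMA per the submitters' processing notes. RMA corrects background, normalizes arrays to each other and combines a set's probes, and it understates folds of dim probe sets. RMA's version is not given in the sources used here, and the values themselves show the log2 scale. Precision is limited by having 3 arrays a group.

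Of 22761 probe sets, the 16884 with IDs starting with Ag were tested. The rule was applied to group means in Python 3.11.15. limma 3.58.1 (R 4.3.3, lmFit and eBayes, 2.76 prior degrees of freedom) modelled 5 group means over the 15 arrays, with Benjamini-Hochberg adjustment in each contrast. The fit was first tested on simulated data. A probe set counted as detected above the 95th percentile of the number IDs in every group.

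The members and lists were chosen with earlier results of these data known. IDs are named by a rule: the 2 members with the largest difference in each section, the 2 with the widest and narrowest section range, the 2 nearest each limit on either side, the 2 highest and lowest in whole-larva level and in whole-larva SD, and probe sets sharing a member's ID up to CDS or UTR. Outside that rule, probe sets sharing only a member's ID number were picked for mention after their values were seen, and not all are named. Gene and cell-type lists were not used, since no ID matched a gene.

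Arrays with the same replicate number deviated together (every correlation over 0.1) in 3 of 10 comparisons, those among gastric caeca, posterior midgut and whole larvae, from 0.17 to 0.35. The alternatives were renormalization, centring, a filter, a rule on medians, a replicate block, a fit per pair of groups, the methods' t-test, and leaving out arrays.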

Additional observations from a re-analysis of the deposited data

Results flagged for a closer look

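The rule limited the gaps between section means, so the differences between sections of members in this part describe them. Ag.3L.1331.0_CDS_at was 1.499 log2 units higher in the anterior midgut than in the hindgut (limma adjusted p = 0.0031) and 1.33 higher in the posterior midgut than in the hindgut (adjusted p = 0.0089), with all arrays of both midgut sections above all hindgut arrays. Ag.2R.613.1_CDS_s_at had an anterior midgut minus posterior midgut difference of -1.80 (adjusted p = 0.019) and an anterior midgut minus hindgut difference of -1.82 (adjusted p = 0.0037). Its anterior midgut array 2, at 5.61, was far below the other anterior midgut arrays, at 7.35 and 7.45. Ag.2L.1804.1_a_at was 1.37 higher in the anterior midgut than in the hindgut (adjusted p = 0.0071) and 1.83 higher in the posterior midgut than in the hindgut (adjusted p = 0.0017). Ag.2L.17.0_CDS_at had a gastric caeca minus hindgut difference of -1.10 (adjusted p = 0.018). Ag.3R.213.0_UTR_s_at, which is no member and shares an ID with one, was 1.02 higher in the anterior midgut than in the hindgut (adjusted p = 0.0072).

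Among the probe sets left out of the tests, 1 of the 937 with an accession as ID was at least 2-fold higher in all 4 sections than in whole larvae. Its levels were 8.61 ± 0.44 in the gastric caeca, 9.98 ± 0.56 in the anterior midgut, 9.72 ± 0.52 in the posterior midgut and 8.22 ± 0.81 in the hindgut, against 7.05 ± 0.34 in whole larvae (SD, n = 3 arrays each). Its lowest section led whole larvae by 1.17 log2 units, and a gap of 1.10 between neighbouring sections kept it outside the rule. No table used here names it.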

How the results depend on the processing

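Of the values recomputed for the counts and medians of the comparisons, 530 were labelled close to the value reported and 61 moved. Of those for single probe sets, 406 stayed and 2 moved, and none changed sign. These totals do not measure stability. Some values could not move, since the array left out belonged to neither group compared. Others labelled close shifted widely, such as the count of members, at 49 and 101 against 69. The cause of the moves was not tested. Where arrays were left out, the values also rested on fewer arrays.

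With the methods' t-test after Benjamini-Hochberg adjustment, 5 members were called higher than whole larvae in the gastric caeca, 0 in the anterior midgut, 6 in the posterior midgut and 28 in the hindgut, and at an unadjusted p under 0.05 the counts were 64, 43, 67 and 63. Of the 12 other probe sets with a member's ID number, this adjusted test called 2, 0 and 2 in the gastric caeca, anterior midgut and posterior midgut. With only the groups compared in the fit, 15 members were called in all 4 sections, and 20 members and 1 of these 12 were called in the anterior midgut. The 2 probe sets with a member's full ID gave 0 calls in anterior and posterior midgut under both of these settings, 2 in the posterior midgut after quantile normalization, and 0 to 1 there with 1 array left out. Widening them to the ID number, which was chosen after seeing the data, gave 6, 4, 8 and 2 calls in the sections.

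Quantile normalization gave 77 members, of which 45 were among the 69, and median centring gave 76, of which 69 were. After quantile normalization the members' median differences were 1.60, 1.93, 1.68 and 1.22 in the gastric caeca, the anterior midgut, the posterior midgut and the hindgut, 7 of the 12 were called in the anterior midgut, and 32 probe sets reached 2-fold in all 4 sections on the held-out arrays numbered 2. Between sections it called 9 members for gastric caeca and anterior midgut, 5 for gastric caeca and posterior midgut, 8 for gastric caeca and hindgut, 21 for anterior midgut and hindgut and 14 for posterior midgut and hindgut. Median centring called 1 member between gastric caeca and posterior midgut, and the fit of only the groups compared called 1 between anterior and posterior midgut.

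With the replicate block, 65, 59, 63 and 62 members were called over whole larvae, and 2 between gastric caeca and anterior midgut, a pair of sections whose numbers did not pair. It changed no other count by over 1.5 times.

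With 1 array left out, the members called over whole larvae ranged from 46 to 68 in the gastric caeca, 40 to 66 in the anterior midgut, 49 to 67 in the posterior midgut and 45 to 68 in the hindgut. In all 4 sections 27 to 63 were called. Members at least 4-fold higher ranged from 9 to 23 in the gastric caeca, 6 to 25 in the anterior midgut, 13 to 26 in the posterior midgut (13 also without both arrays that stand apart) and 9 to 19 in the hindgut. Of the 12, 4 to 7 were called in the gastric caeca, 3 to 8 in the anterior midgut, 7 to 8 in the posterior midgut and always 2 in the hindgut. Members called between sections ranged from 0 to 10 for gastric caeca and anterior midgut, 1 to 3 for gastric caeca and posterior midgut, 0 to 4 for gastric caeca and hindgut and 1 to 9 for anterior and posterior midgut.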

Other observations

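For the 2 members with the highest whole-larva levels, the tested probe sets with the most similar levels over the 15 arrays were listed as a description. The arrays share sections and whole larvae, so high correlations follow from group differences alone. Nearest to Ag.3R.241.0_CDS_at were Ag.3R.967.0_CDS_a_at (Pearson r = 0.932) and Ag.2L.652.1_a_at (r = 0.918), neither of them a member. Ag.3R.967.0_CDS_a_at averaged 10.45 in the gastric caeca, 9.61 in the anterior midgut, 10.30 in the posterior midgut and 10.22 in the hindgut, against 8.66 in whole larvae. Nearest to Ag.2L.191.0_CDS_s_at were the member Ag.2L.191.1_CDS_a_at (r = 0.989) and Ag.2R.892.0_CDS_at (r = 0.937), which is no member and averaged 10.93, 11.27, 10.11 and 9.55 in the sections, against 8.63 in whole larvae.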
